A study of Mus musculus with 8 samples.

Results

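The genes described here encode the lysosome and the autophagy machinery of a mouse B cell line. They are 39 genes, taken by name from a table of 24054 named genes, and 35 of the 39 passed the filter on low counts. The table comes from polyA-selected RNA of 2 stable lines of WEHI-231, a mouse lymphoma of immature B cells: WEHI-miR-148a, named for the microRNA miR-148a, and WEHI-control. Each line was sequenced after 14 h with anti-IgM at 2 ug/ml, an antibody that cross-links the B cell receptor, and without stimulation. The 4 groups of 2 libraries are therefore the anti-IgM miR-148a, unstimulated miR-148a, anti-IgM control and unstimulated control cultures, all grown in the same serum-containing medium. The sources used here do not say how the microRNA was brought into the cells, from which promoter it was expressed or whether each line is 1 clone. Replicate 1 and replicate 2 carry the label prefixes R137 and R143 in every group. The labels do not say whether replicates were grown separately, and the p-values then cover the spread between these libraries alone, which may be technical.

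Lysosomes are acidified by a proton pump in their membrane and hold hydrolases that break down proteins, glycans and lipids. Autophagy delivers cytoplasm to them: a membrane cup forms around its cargo, is decorated with lipid-linked ATG8 proteins and fuses with the lysosome. The transcription factors TFEB and TFE3 activate many of these genes through E-boxes in their promoters, and they are held in the cytosol while the kinase complex mTORC1 is active on the lysosomal surface. In B cells the same compartment degrades internalised B cell receptor with its antigen and trims the invariant chain of MHC class II molecules.

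Promoters were read first, because the TFEB family acts through them. In RefSeq promoters of build GRCm38.p6, which run from 250 bases before to 50 bases after an annotated start, 32 of the 39 genes had an entry. The E-box CACGTG, which reads the same on both strands, was present in 11 of these 32 genes (34.4%), against 12.1% of the 8570 tested genes with a promoter and 8.09% of all 27025 genes with a promoter. The longer form TCACGTG, counted on both strands and always overlapping the E-box, was present in 9 of the 32 genes (28.1%), against 7.15% of the tested genes and 4.29% of all genes. A match describes these letters and is not a measured binding site. The stretches with a TCACGTG are shown 5′ to 3′ on the strand of the gene, with each E-box in capitals, because TFEB and TFE3 recognise these letters.
Lamp1, chr8:13159088-13159163, plus strand: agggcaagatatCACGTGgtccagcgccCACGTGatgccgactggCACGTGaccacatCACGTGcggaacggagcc
Mcoln1, chr8:3500436-3500491, plus strand: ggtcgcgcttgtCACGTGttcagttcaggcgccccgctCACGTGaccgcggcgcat
Ctsa, chr2:164833749-164833795, plus strand: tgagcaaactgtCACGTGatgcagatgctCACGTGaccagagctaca
Ctsd, chr7:142388055-142388077, minus strand: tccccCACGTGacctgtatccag
Ctsd, chr7:142387908-142387937, minus strand: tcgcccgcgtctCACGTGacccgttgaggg
Gaa, chr11:119267811-119267840, plus strand: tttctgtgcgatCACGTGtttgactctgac
Gla, chrX:134601182-134601244, minus strand: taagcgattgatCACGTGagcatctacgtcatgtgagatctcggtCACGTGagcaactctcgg
Glb1, chr9:114401018-114401047, plus strand: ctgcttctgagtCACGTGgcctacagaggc
Atp6v0d1, chr8:105566050-105566079, minus strand: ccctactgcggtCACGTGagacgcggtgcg
Atg7, chr6:114670952-114670981, plus strand: catattggtggtCACGTGtgcagtaagtga
Lamp1, the abundant membrane glycoprotein of lysosomes, had 4 E-boxes between positions -61 and -15 from its start, the most of any of the 11 genes. Mcoln1, Ctsa, Ctsd and Gla had 2 each. In Ctsl and Atg5 the only E-box was not preceded by T on either strand.
Ctsl, chr13:64370739-64370768, minus strand: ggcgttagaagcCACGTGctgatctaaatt
Atg5, chr10:44268313-44268342, plus strand: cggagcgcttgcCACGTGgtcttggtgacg

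**Figure D1:**
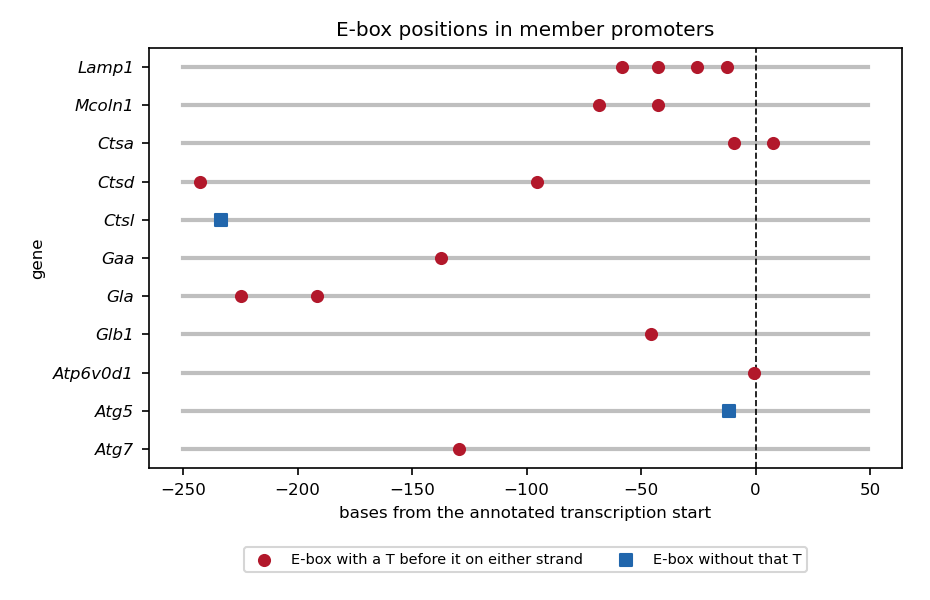
Position of each E-box CACGTG along the promoter of the 11 genes that hold one, in bases from the annotated transcription start (dashed line); grey bars span the 300 bases searched, red circles are E-boxes preceded by T on either strand and blue squares are E-boxes without that T. The 4 E-boxes of Lamp1 lie within 61 bases before the start.

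The microRNA that names the tested line pairs with transcripts through its seed, bases 2 to 8, shown in capitals. The RefSeq sequence of miR-148a-3p (chr6:51269829-51269850, minus strand, GRCm38.p6) and that of miR-148b-3p (chr15:103285185-103285206, plus strand) have the same seed.
mmu-miR-148a-3p: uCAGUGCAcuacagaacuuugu
mmu-miR-148b-3p: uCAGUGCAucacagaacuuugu
Matches to the seed were searched in the 3′ UTRs of GENCODE M21 transcripts (GRCm38), 1 transcript per gene. Lipa had an 8mer match, which adds an A after the seed match, and Lamp1, Ctsz, Gm2a, Atp6v0d1 and Gabarapl2 had 7mer-m8 matches. These 6 genes are 15.4% of the 39 and 17.1% of the 35 that were tested, and 15.3% of the 10460 tested genes with an annotated 3′ UTR had such a match. Each window is shown on the strand of the gene with the match in capitals.
Lamp1, 7mer-m8, chr8:13175198-13175224, plus strand: gccctgtctcTGCACTGtgtacaataa
Ctsz, 7mer-m8, chr2:174427697-174427723, minus strand: gaaacacaacTGCACTGggaccctccg
Lipa, 8mer, chr19:34492821-34492848, minus strand: aaaagcagttTGCACTGAttaaaaaaat
Gm2a, 7mer-m8, chr11:55112571-55112597, plus strand: accaagtatcTGCACTGtttaagtctt
Atp6v0d1, 7mer-m8, chr8:105524863-105524889, minus strand: ggttcccaagTGCACTGtgtgtgtgtc
Gabarapl2, 7mer-m8, chr8:111952594-111952620, plus strand: tttctttttgTGCACTGtcctcatggc

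Library totals ran from 5810227 to 18660373 counts, a ratio of 3.21, and 3 counts were worth 0.166 to 0.502 CPM, which are counts divided by the TMM-scaled library total. The labelled B cell identity was checked on its markers. Cd79a, a signalling chain of the B cell receptor, stood at 481 to 769 CPM and Pax5, the transcription factor of B cell identity, at 115 to 244 CPM. Of 11 monocyte and macrophage markers in the table, Lyz2, Marco, S100a8 and S100a9 had 0 counts in all 8 libraries, and Mpeg1, which B cells also transcribe, made up most of the summed level. That sum was 37.8 and 34.1 CPM in the anti-IgM and 25.6 and 20.5 CPM in the unstimulated miR-148a libraries, and 37.8 and 34.1 CPM in the anti-IgM and 29.9 and 22.9 CPM in the unstimulated control libraries. Lysosomal genes are abundant in macrophages, and the part of the marker sum, which moved with anti-IgM, in the results was not tested. Itgam, an integrin chain of myeloid cells, was the marker that passed the test in both lines, and it was higher with anti-IgM. It had 8.06 and 8.86 CPM in the anti-IgM and 0.613 and 0.307 CPM in the unstimulated miR-148a libraries. In the control line it had 3.85 and 5.57 CPM with anti-IgM and 0.388 and 0.451 CPM unstimulated. Summed T cell, fibroblast and erythroid markers reached at most 1.0, 0.615 and 2.12 CPM.

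The 4 genes that did not pass the filter were Ctsl, Hexa, Gabarapl1 and Wipi1. Gabarapl1, an ATG8 protein, and Wipi1, a phosphoinositide-binding autophagy factor, were listed with 0 counts in all 8 libraries, which allows up to 0.166 to 0.502 CPM by counting error alone. Hexa, the alpha chain of the hexosaminidase that degrades GM2 ganglioside, was listed with 2 counts in the anti-IgM miR-148a library of replicate 1 and 0 in the other 7 libraries. No source used here states the annotation or how reads were assigned, so rows at or near 0 need not mean absent transcripts. The same limit holds for markers listed at 0. Ctsl, a cysteine endopeptidase, had at most 14 counts in a library. Per kilobase of annotated exon and averaged over the 8 libraries, Psap was the highest of the 39 at 405 CPM per kb, followed by Ctsz at 176, Lamp1 at 72.9, Ctss at 54.7 and Sqstm1 at 42.4 CPM per kb. The lowest of the genes tested were Mcoln1 at 1.82, Map1lc3a at 1.96, Npc1 at 2.49 and Gm2a at 2.53 CPM per kb. The exon lengths are unions over all isoforms, so these levels are understated where long isoforms are not made. The map of levels by library shows the 35 tested genes side by side.

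**Figure D2:**
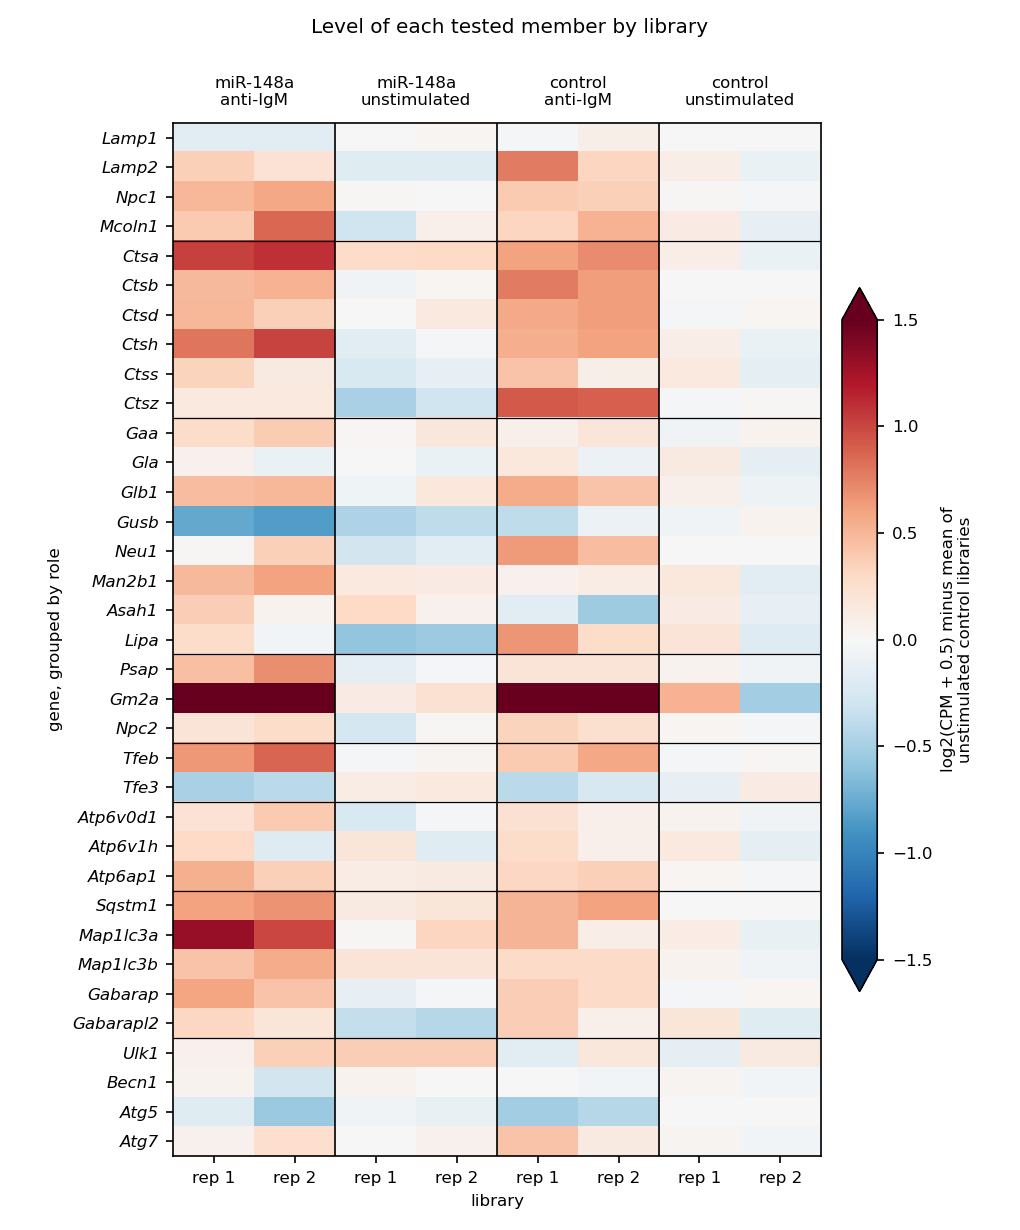
Level of each tested gene in each library, as log2(CPM + 0.5) minus the mean of the unstimulated control libraries (colour, capped at ±1.5); rows are genes in role groups parted by lines and columns are the 2 libraries of each group. Gm2a is the darkest row in both anti-IgM groups, and Ctsz is redder in the anti-IgM control libraries than in the anti-IgM miR-148a libraries.

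The summed lysosomal and autophagy transcripts stood higher with anti-IgM in both lines. Summed over the 39 genes, the level was 3991 and 4247 CPM in the anti-IgM and 2925 and 3089 CPM in the unstimulated miR-148a libraries, and 3939 and 3844 CPM in the anti-IgM and 3234 and 3044 CPM in the unstimulated control libraries. Without Psap, the most abundant, the anti-IgM libraries were still above the unstimulated ones in each line. By role group, the genes that start autophagy or attach ATG8 proteins to lipid had lower summed means with anti-IgM. These were 233 against 252 CPM in the miR-148a line and 236 against 243 CPM in the control line. The means of the other role groups were higher with anti-IgM in each line. In the miR-148a line, 22 of the 35 tested genes rose and 2 fell by edgeR's quasi-likelihood test (Benjamini-Hochberg adjusted p under 0.05), while 28.7% of the 11291 genes tested passed, 14.7% higher and 14.0% lower. In the control line, 13 of the 35 rose and 1 fell, while 17.0% of all genes tested passed, 9.6% higher and 7.45% lower. DESeq2 called 16 higher and 1 lower of these genes in the miR-148a line, where it called 24.0% of all genes with an adjusted p. In the control line it called 9 higher and none lower, and 15.6% of all genes. The median log2 fold change of the 35 was 0.43 in the miR-148a line and 0.29 in the control line, and over all genes tested the medians were 0.00 and 0.01. The libraries of the 2 conditions did not overlap for 25 higher and 5 lower genes of the 35 in the miR-148a line. In the control line this held for 22 higher and 4 lower genes. Over all genes tested it held for 65.4% and 59.5% in the miR-148a and control lines, so a lack of overlap is common. In RNA from whole cultures, more cells with a transcript and more transcript per cell cannot be told apart.

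**Figure D3:**
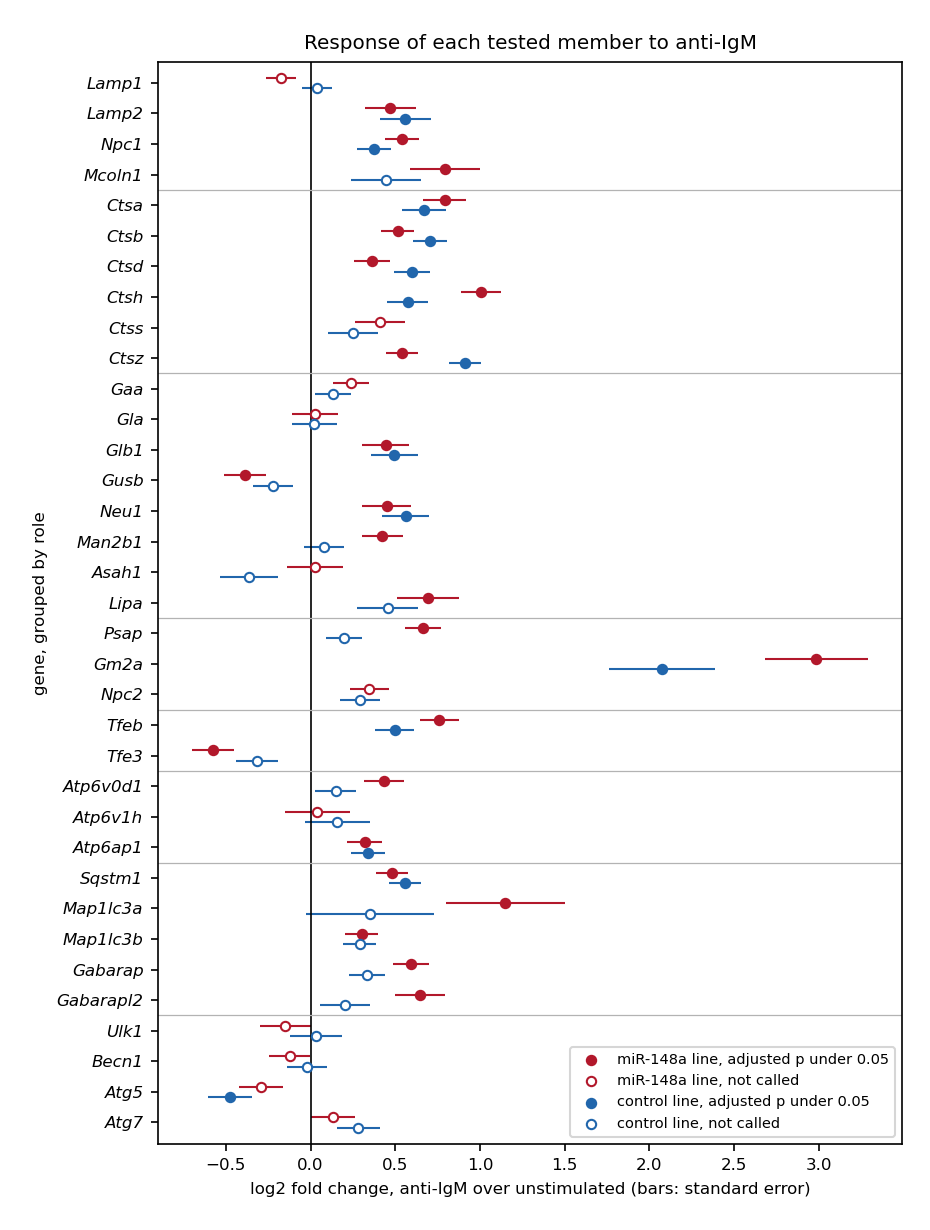
Log2 fold change of each tested gene, anti-IgM over unstimulated (horizontal axis; bars are standard errors), in the miR-148a line (red, upper) and the control line (blue, lower); filled points have an edgeR adjusted p under 0.05. Most points lie to the right of 0, Gm2a lies farthest right at 2.99 and 2.08, and Tfe3, Gusb and Atg5 lie to the left in both lines.

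Among the activator and lipid transfer proteins, Gm2a changed most of all 35 genes in both lines. It encodes the GM2 activator, which lifts GM2 ganglioside from the membrane for hexosaminidase. Gm2a had 24.5 and 22.6 CPM in the anti-IgM and 2.83 and 3.07 CPM in the unstimulated miR-148a libraries, and 13.9 and 10.96 CPM in the anti-IgM and 3.88 and 1.62 CPM in the unstimulated control libraries. The groups were apart in both lines, and the anti-IgM libraries of the miR-148a line were above those of the control line. Its log2 fold change was 2.99 ± 0.31 in the miR-148a line (adjusted p = 0.000535, 7.93-fold) and 2.08 ± 0.31 in the control line (adjusted p = 0.00396, 4.22-fold). Psap encodes prosaposin, the precursor of the saposins that present sphingolipids to their hydrolases. Psap had 1321 and 1576 CPM in the anti-IgM and 875 and 957 CPM in the unstimulated miR-148a libraries, and 1112 and 1113 CPM in the anti-IgM and 1008 and 933 CPM in the unstimulated control libraries. Both anti-IgM libraries were above both unstimulated ones in each line. Psap rose by 0.66 ± 0.11 in the miR-148a line (adjusted p = 0.00246), and its log2 fold change in the control line was 0.20 ± 0.11 (adjusted p = 0.237). Npc2, which hands cholesterol to NPC1, had log2 fold changes of 0.35 and 0.29 in the miR-148a and control lines and passed in both only with the replicate number as a block (adjusted p = 0.00611 and 0.0244).

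The cathepsins, the proteases of the lysosome, rose together, with 5 of the 6 tested passing in each line. Ctsh encodes an aminopeptidase. Ctsh had 203 and 236 CPM in the anti-IgM and 104 and 115 CPM in the unstimulated miR-148a libraries, and 171 and 178 CPM in the anti-IgM and 126 and 109 CPM in the unstimulated control libraries. The anti-IgM libraries lay above the unstimulated ones in both lines, with log2 fold changes of 1.01 ± 0.12 in the miR-148a line (adjusted p = 0.000796) and 0.57 ± 0.12 in the control line (adjusted p = 0.0136). Ctsz encodes a carboxypeptidase. Ctsz had 237 and 237 CPM in the anti-IgM and 152 and 174 CPM in the unstimulated miR-148a libraries, and 404 and 399 CPM in the anti-IgM and 210.3 and 217 CPM in the unstimulated control libraries. Both miR-148a libraries were below both control libraries in each condition, and within a line Ctsz rose by 0.54 ± 0.10 in the miR-148a line (adjusted p = 0.00385) and 0.91 ± 0.10 in the control line (adjusted p = 0.00112). Ctsa encodes a carboxypeptidase that also shields the galactosidase GLB1 and the sialidase NEU1. Ctsa had 24.0 and 25.2 CPM in the anti-IgM and 14.1 and 14.4 CPM in the unstimulated miR-148a libraries, and 17.7 and 19.1 CPM in the anti-IgM and 12.4 and 10.7 CPM in the unstimulated control libraries. The log2 fold change of Ctsa was 0.79 ± 0.13 in the miR-148a line (adjusted p = 0.00237) and 0.67 ± 0.13 in the control line (adjusted p = 0.0104).

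Ctsb encodes a cysteine protease with both endopeptidase and exopeptidase activity. Ctsb had 142.6 and 146 CPM in the anti-IgM and 98.5 and 104 CPM in the unstimulated miR-148a libraries, and 175 and 158 CPM in the anti-IgM and 102 and 101 CPM in the unstimulated control libraries. Its anti-IgM and unstimulated libraries did not overlap in either line, and it rose by 0.51 ± 0.10 in the miR-148a line (adjusted p = 0.00506) and by 0.70 ± 0.10 in the control line (adjusted p = 0.00284). Ctsd, the aspartic protease of the lysosome, rose by 0.36 ± 0.10 in the miR-148a line (adjusted p = 0.0301) and 0.60 ± 0.10 in the control line (adjusted p = 0.00688). Ctss, the protease that trims invariant chain in B cells, was the cathepsin that did not pass, with 0.41 in the miR-148a line and 0.25 in the control line; with the replicate number as a block it passed in the miR-148a line (adjusted p = 0.00537).

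**Figure D4:**
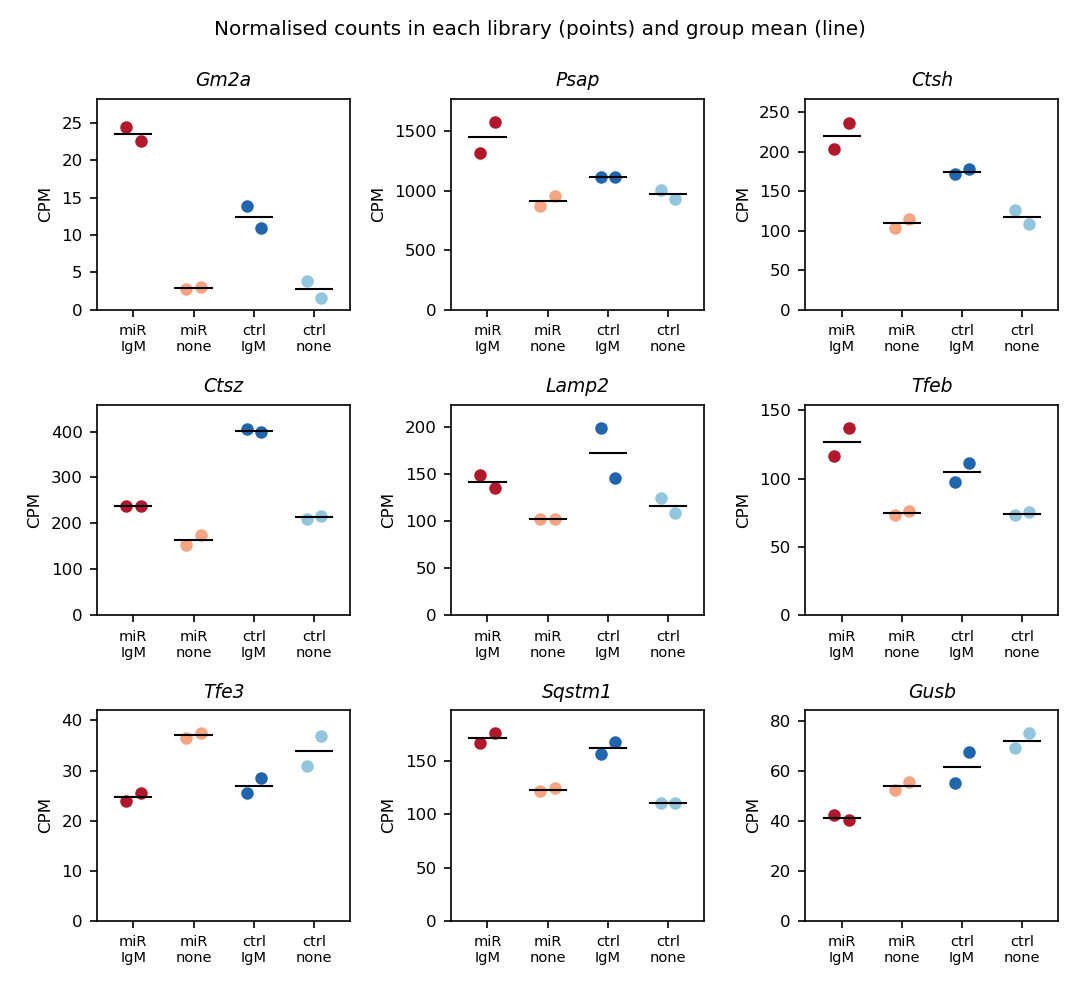
CPM (vertical axes from 0) of 9 genes in each library (points) with the group mean (line), for the miR-148a line (miR) and the control line (ctrl), with anti-IgM (IgM) or unstimulated (none). Gm2a, Psap, Ctsh, Ctsz, Lamp2, Tfeb and Sqstm1 are higher with anti-IgM in each line, Tfe3 and Gusb are lower, and Ctsz is lower in the miR-148a line than in the control line in both conditions.

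Glycosidases and lipid hydrolases were divided. Of 8 tested, 4 rose and 1 fell in the miR-148a line, and 2 rose in the control line. DESeq2 called 2 higher and none lower in the miR-148a line, and none in the control line. Lipa encodes acid lipase, which frees cholesterol and fatty acids from internalised lipoproteins. Lipa had 44.2 and 35.4 CPM in the anti-IgM and 24.1 and 24.8 CPM in the unstimulated miR-148a libraries, and 58.3 and 44.3 CPM in the anti-IgM and 42.0 and 31.8 CPM in the unstimulated control libraries. The groups did not overlap in either line. It rose by 0.69 ± 0.19 in the miR-148a line (adjusted p = 0.0221), and in the control line its log2 fold change was 0.45 ± 0.18 (adjusted p = 0.114, and 0.00503 with the replicate block). Gusb encodes beta-glucuronidase. Gusb had 42.3 and 40.2 CPM in the anti-IgM and 52.3 and 55.4 CPM in the unstimulated miR-148a libraries, and 55.1 and 67.7 CPM in the anti-IgM and 69.3 and 74.9 CPM in the unstimulated control libraries. Its libraries were lower with anti-IgM in both lines, with -0.39 ± 0.12 in the miR-148a line (adjusted p = 0.0423) and -0.22 ± 0.12 in the control line (adjusted p = 0.231). Neu1 encodes the sialidase of the lysosome. Neu1 had 17.8 and 22.5 CPM in the anti-IgM and 14.4 and 15.5 CPM in the unstimulated miR-148a libraries, and 27.6 and 24.4 CPM in the anti-IgM and 17.4 and 17.6 CPM in the unstimulated control libraries. Neu1 rose by 0.45 ± 0.14 in the miR-148a line (adjusted p = 0.0449) and 0.56 ± 0.14 in the control line (adjusted p = 0.0269). Glb1 encodes beta-galactosidase. Glb1 had 19.6 and 20.03 CPM in the anti-IgM and 13.4 and 15.8 CPM in the unstimulated miR-148a libraries, and 20.9 and 19.1 CPM in the anti-IgM and 14.9 and 13.3 CPM in the unstimulated control libraries. The log2 fold change of Glb1 was 0.44 ± 0.14 in the miR-148a line (adjusted p = 0.0398) and 0.49 ± 0.14 in the control line (adjusted p = 0.0386), although Glb1 shares its locus with the coding gene Tmppe. Man2b1, an alpha-mannosidase, rose in the miR-148a line by 0.42 ± 0.12 (adjusted p = 0.0275). Gaa, Gla and Asah1, which degrade glycogen, alpha-galactosyl lipids and ceramide, passed in neither line and ranged from -0.37 for Asah1 in the control line to 0.24 for Gaa in the miR-148a line; these 2 values passed with the block (adjusted p = 0.00905 and 0.0292).

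Of the 4 membrane proteins, 3 rose in the miR-148a line and 2 in the control line. Lamp2 encodes a membrane glycoprotein with a part in chaperone-mediated autophagy. Lamp2 had 148 and 135 CPM in the anti-IgM and 102 and 102 CPM in the unstimulated miR-148a libraries, and 198 and 145 CPM in the anti-IgM and 124 and 108 CPM in the unstimulated control libraries. The anti-IgM libraries were above the unstimulated ones in both lines, and the log2 fold change was 0.47 ± 0.15 in the miR-148a line (adjusted p = 0.0444) and 0.56 ± 0.15 in the control line (adjusted p = 0.0347). Npc1 exports cholesterol from the lysosome. Npc1 had 33.6 and 35.4 CPM in the anti-IgM and 23.9 and 23.6 CPM in the unstimulated miR-148a libraries, and 31.1 and 30.3 CPM in the anti-IgM and 23.8 and 23.4 CPM in the unstimulated control libraries. Its replicates lay close together in every group, and it rose by 0.54 ± 0.10 in the miR-148a line (adjusted p = 0.00436) and 0.38 ± 0.10 in the control line (adjusted p = 0.0342). Mcoln1 encodes the calcium channel TRPML1. Mcoln1 had 15.0 and 20.9 CPM in the anti-IgM and 9.04 and 11.9 CPM in the unstimulated miR-148a libraries, and 14.2 and 16.4 CPM in the anti-IgM and 12.3 and 10.3 CPM in the unstimulated control libraries. The groups were apart, by less in the control line, and Mcoln1 rose by 0.79 ± 0.21 in the miR-148a line (adjusted p = 0.02), and its value in the control line was 0.44 ± 0.21 (adjusted p = 0.175). Lamp1, with 4 E-boxes, passed in neither line, with -0.18 in the miR-148a line and 0.04 in the control line.

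The TFEB family moved in opposite directions. Tfeb had 116 and 136.9 CPM in the anti-IgM and 73.4 and 76.5 CPM in the unstimulated miR-148a libraries, and 97.6 and 111 CPM in the anti-IgM and 73.1 and 75.4 CPM in the unstimulated control libraries. Tfeb, whose product activates lysosomal genes, was higher in every anti-IgM library than in any unstimulated one, and it rose by 0.76 ± 0.12 in the miR-148a line (adjusted p = 0.00197) and 0.50 ± 0.12 in the control line (adjusted p = 0.0218). Tfe3 had 24.0 and 25.5 CPM in the anti-IgM and 36.5 and 37.6 CPM in the unstimulated miR-148a libraries, and 25.4 and 28.5 CPM in the anti-IgM and 31.0 and 36.8 CPM in the unstimulated control libraries. Tfe3, which encodes a factor of the same family, was lower in every anti-IgM library than in any unstimulated one, with a log2 fold change of -0.58 ± 0.12 in the miR-148a line (adjusted p = 0.00835) and -0.32 ± 0.12 in the control line (adjusted p = 0.111). With the replicate block Tfe3 passed in the control line as well (adjusted p = 0.0271). The location of the proteins, which governs their activity, was not measured.

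Of the 3 proton pump genes, 2 rose in the miR-148a line and 1 in the control line. Atp6v0d1 encodes a subunit of the membrane sector. Atp6v0d1 had 54.3 and 61.6 CPM in the anti-IgM and 39.9 and 46.1 CPM in the unstimulated miR-148a libraries, and 54.9 and 49.1 CPM in the anti-IgM and 48.3 and 45.1 CPM in the unstimulated control libraries. Its log2 fold change was 0.43 ± 0.12 in the miR-148a line (adjusted p = 0.0264) and 0.15 ± 0.12 in the control line (adjusted p = 0.44). Atp6ap1 encodes an accessory protein of pump assembly. Atp6ap1 had 79.4 and 70.3 CPM in the anti-IgM and 59.5 and 60.3 CPM in the unstimulated miR-148a libraries, and 68.5 and 70.7 CPM in the anti-IgM and 56.1 and 53.8 CPM in the unstimulated control libraries. The change of Atp6ap1 was small and similar in size, 0.32 ± 0.10 in the miR-148a line (adjusted p = 0.0425) and 0.34 ± 0.10 in the control line (adjusted p = 0.0488). Atp6v1h, a subunit of the cytosolic sector, passed in neither, with 0.04 and 0.16 in the miR-148a and control lines.

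The receptor and ATG8 genes all rose in the miR-148a line, 5 of 5 tested, and 1 of the 5 rose in the control line. DESeq2 called 3 of the 5 higher in the miR-148a line and 1 in the control line. Sqstm1 encodes p62, which tethers ubiquitin-marked cargo to ATG8 proteins. Sqstm1 had 168 and 177 CPM in the anti-IgM and 122 and 125 CPM in the unstimulated miR-148a libraries, and 157 and 168 CPM in the anti-IgM and 111 and 110.4 CPM in the unstimulated control libraries. The anti-IgM libraries were above the unstimulated ones in both lines, and Sqstm1 rose by 0.48 ± 0.09 in the miR-148a line (adjusted p = 0.00545) and 0.56 ± 0.09 in the control line (adjusted p = 0.00616). Gabarap and Gabarapl2 encode ATG8 proteins of one subfamily. Gabarap had 52.3 and 46.8 CPM in the anti-IgM and 31.6 and 33.8 CPM in the unstimulated miR-148a libraries, and 44.9 and 42.4 CPM in the anti-IgM and 33.8 and 35.3 CPM in the unstimulated control libraries. Gabarapl2 had 59.9 and 54.7 CPM in the anti-IgM and 37.4 and 35.7 CPM in the unstimulated miR-148a libraries, and 62.1 and 50.6 CPM in the anti-IgM and 54.5 and 42.5 CPM in the unstimulated control libraries. Gabarap rose by 0.59 ± 0.11 in the miR-148a line (adjusted p = 0.00392), and its log2 fold change in the control line was 0.33 ± 0.11 in the control line (adjusted p = 0.0628, and 0.0172 with the replicate block). Gabarapl2 rose by 0.64 ± 0.15 in the miR-148a line (adjusted p = 0.0117), and its log2 fold change in the control line, where the groups overlap, was 0.20 ± 0.15 in the control line (adjusted p = 0.38). Map1lc3a, one of the LC3 genes, was scarce. Map1lc3a had 4.44 and 3.51 CPM in the anti-IgM and 1.53 and 2.00 CPM in the unstimulated miR-148a libraries, and 2.34 and 1.65 CPM in the anti-IgM and 1.66 and 1.35 CPM in the unstimulated control libraries. It rested on 14 to 38 counts per library and had a log2 fold change of 1.15 ± 0.35 in the miR-148a line (adjusted p = 0.037) and 0.35 ± 0.38 in the control line (adjusted p = 0.577). Map1lc3b, the more abundant LC3 gene, rose by 0.30 ± 0.10 in the miR-148a line (adjusted p = 0.046), against 0.29 ± 0.10 in the control line (adjusted p = 0.0739, and 0.0195 with the block). ATG8 genes have related copies, and no source used here states how reads shared between copies were assigned.

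Of the 39, the 4 tested genes that start autophagy or attach ATG8 proteins to lipid did not pass as higher in either line. Among autophagy genes outside the 39, given below, some rose, such as Atg9a, and fewer fell. Atg5, part of the conjugating complex, was the one of 4 tested that passed. Atg5 had 36.3 and 28.1 CPM in the anti-IgM and 39.8 and 38.2 CPM in the unstimulated miR-148a libraries, and 28.6 and 30.7 CPM in the anti-IgM and 41.6 and 41.3 CPM in the unstimulated control libraries. Its groups did not overlap in either line, and it fell in the control line with -0.48 ± 0.13 (adjusted p = 0.0372), against -0.29 ± 0.13 in the miR-148a line (adjusted p = 0.127); with the replicate block it also passed there (adjusted p = 0.0413). Ulk1, the initiating kinase, Becn1, part of the lipid kinase complex, and Atg7, the activating enzyme, ranged from -0.15 for Ulk1 in the miR-148a line to 0.28 for Atg7 in the control line, and none of the 3 passed.

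In the control line, the calls of Ctsb, Ctsd, Ctsz and Gm2a were kept in every alternative setting run, and leaving out the unstimulated control library of replicate 2 left only these 4 of the 14 calls. Without the anti-IgM control library of replicate 1, 7 calls remained and Lamp2, Npc1, Ctsh, Glb1, Neu1, Atp6ap1 and Atg5 were lost. Without that of replicate 2, 7 remained and Npc1, Ctsa, Ctsh, Glb1, Tfeb, Atp6ap1 and Atg5 were lost. Without the unstimulated control library of replicate 1, 7 remained and Lamp2, Npc1, Glb1, Neu1, Tfeb, Atp6ap1 and Atg5 were lost. Without either unstimulated miR-148a library, 9 remained, and DESeq2 made 9 calls. In the miR-148a line, Npc1, Ctsa, Ctsh, Psap, Gm2a, Tfeb, Tfe3 and Gabarap kept their calls in every setting, and these 8 were the calls left of 24 without the unstimulated miR-148a library of replicate 1. Without that of replicate 2, 13 of the 24 remained. Without the anti-IgM miR-148a library of replicate 2, 13 also remained, and Lamp2, Ctsd, Glb1, Gusb, Neu1, Man2b1, Atp6ap1, Map1lc3a and Map1lc3b were lost in both of these. Within the libraries of prefix R137 alone the median log2 difference of the tested genes was 0.46 in the miR-148a line and 0.29 in the control line, and within prefix R143 it was 0.40 and 0.26.

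Most genes had a change of the same sign in both lines. The sign of the fitted change was the same in 32 of the 35 genes, and 13 genes rose in both lines: Lamp2, Npc1, Ctsa, Ctsb, Ctsd, Ctsh, Ctsz, Glb1, Neu1, Gm2a, Tfeb, Atp6ap1 and Sqstm1. Another 11 passed in the miR-148a line alone, Atg5 passed in the control line alone and 10 passed in neither. Across the 35 genes the log2 fold changes of the lines had a Pearson's r of 0.877 and a Spearman's rho of 0.760, and r was 0.745 over the 34 genes without Gm2a. The 2 responses share no library, but they share label prefixes, and genes are not independent replicates. The absolute change was larger in the miR-148a line for 23 of the 35 genes. Over all genes tested more also passed in the miR-148a line, 28.7% against 17.0% in the control line. The counts and correlations between the lines were not taken over all genes, so they are not shown to be particular to these 35. Passing in 1 line alone does not show a different response, and the test of that difference passed for none of the 35 genes or of the 11291 genes tested, of which 484 had an unadjusted p under 0.05, DESeq2 called 1 and the replicate block 11 (0.0974%). Psap with 0.46 ± 0.15, Ctsh with 0.43 ± 0.17 and Ctsz with -0.37 ± 0.14 were the members with an unadjusted p under 0.05 for the difference, miR-148a line minus control line, and their adjusted p was 0.9996 (with the block, 0.124, 0.221 and 0.196). The difference for Gm2a was 0.91 ± 0.44.

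Without the replicate block the lines themselves differed in few of these genes, and with it in more, as given below. With anti-IgM, 2 of the 35 were lower in the miR-148a line and none was higher, while 2.52% of all genes tested passed, 1.36% higher and 1.16% lower. DESeq2 called the same 2 lower and also Man2b1 and Psap higher, where it called 4.1% of all genes with an adjusted p. The log2 fold change of Ctsz was -0.76 ± 0.10 (adjusted p = 0.0133), and that of Gusb -0.58 ± 0.12 (adjusted p = 0.0474). For both genes the miR-148a libraries lay below the control libraries in either condition, with values given above. The libraries of the 2 lines did not overlap for 43.8% of all genes tested with anti-IgM and 44.3% unstimulated. Without stimulation none of the 35 passed edgeR's test and DESeq2 called 1, Ctsz. Of all genes tested, 0.487% passed in edgeR and 1.3% in DESeq2. In edgeR's unstimulated comparison 6 of the 35 had an unadjusted p under 0.05, as did 1286 of the 11291 genes tested. Ctsz had -0.39 ± 0.10 (adjusted p = 0.13), Gusb -0.42 ± 0.12 (adjusted p = 0.189) and Lipa -0.60 ± 0.18 (adjusted p = 0.23) there. The call of Ctsz with anti-IgM was lost without either anti-IgM control library or without the anti-IgM miR-148a library of replicate 2, with adjusted p-values of 0.0215 to 0.0978 over all 8 libraries left out, and that of Gusb was lost without any 1 of the 8 libraries (0.0628 to 0.280). Both calls were also lost when only the groups compared were fitted.

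With the replicate block the line difference passed for more genes, and the values change the calls. Without stimulation it passed for 5, while 7.29% of all genes tested passed in that fit: Ctsz, Gusb, Lipa and Gabarapl2 were lower in the miR-148a line and Ulk1 was higher. With anti-IgM it passed for 10, while 16.1% of all genes tested passed, with Ctsz, Gusb and Lipa lower and Ctsa, Ctsh, Man2b1, Asah1, Psap, Gm2a and Tfeb higher in the miR-148a line. The log2 fold changes without the block ran from 0.28 for Tfeb to 0.94 for Gm2a among the 7 higher genes. Gm2a stood at 24.5 and 22.6 CPM in the anti-IgM miR-148a libraries and 13.9 and 10.96 CPM in the anti-IgM control libraries, and its adjusted p was 0.00463 with and 0.125 without the block. Psap stood at 1321 and 1576 CPM and 1112 and 1113 CPM in the same libraries, with adjusted p-values of 0.00644 with and 0.107 without the block.

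**Figure D5:**
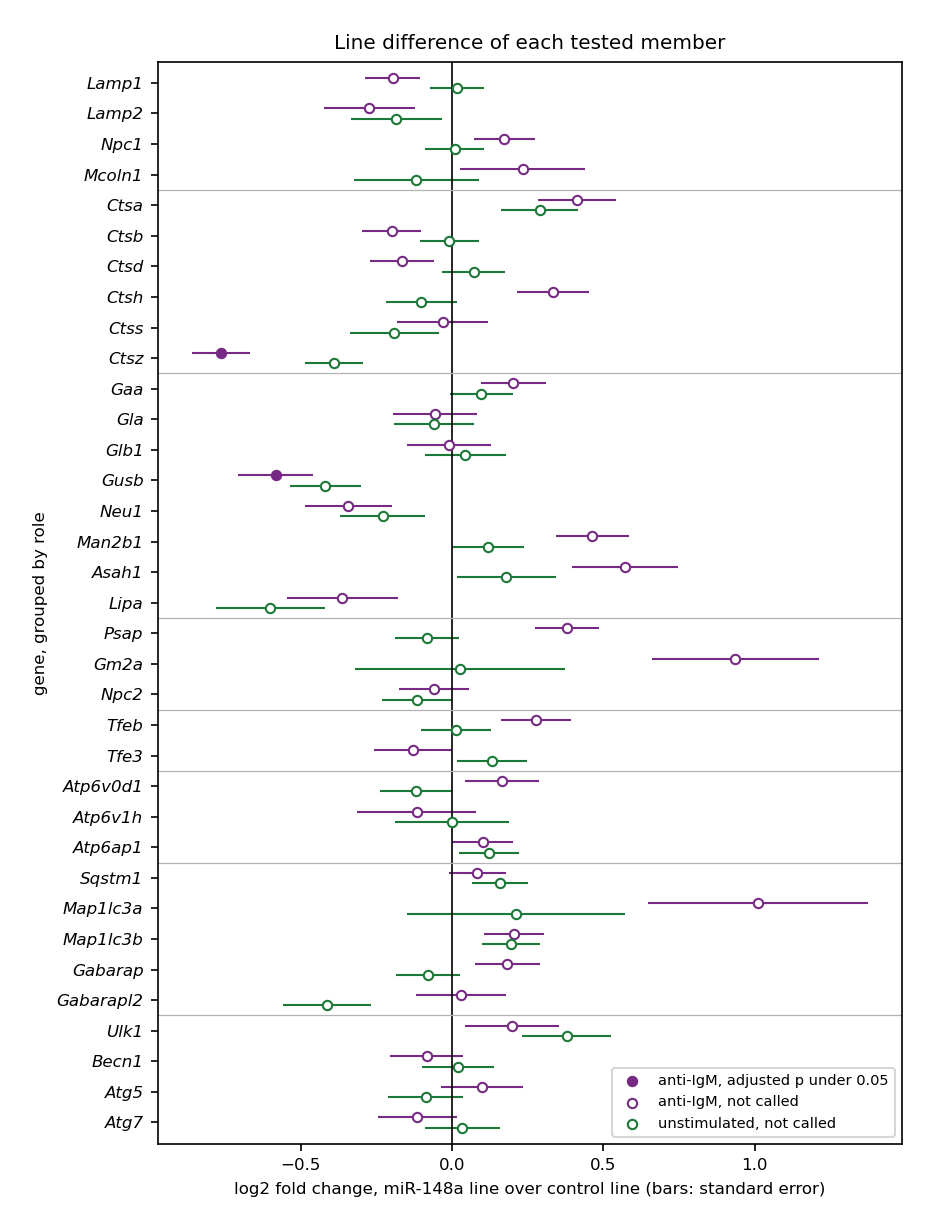
Log2 fold change of each tested gene, miR-148a line over control line (horizontal axis; bars are standard errors), with anti-IgM (purple, upper) and unstimulated (green, lower); filled points have an edgeR adjusted p under 0.05 without the replicate block. The filled points are Ctsz at -0.76 and Gusb at -0.58, both with anti-IgM.

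Set beside the seed matches shown above, the 6 genes with a match were not uniformly lower in the miR-148a line. Ctsz and Lipa were below the control line in both conditions, at -0.76 and -0.36 with anti-IgM and -0.39 and -0.60 unstimulated. Gm2a, with a match far into a long 3′ UTR, was at 0.94 with anti-IgM and 0.03 unstimulated. Unstimulated, 4 of the 6 had a negative log2 difference with a median of -0.26, and 12 of the 29 other genes did with a median of 0.01. With anti-IgM, 3 of the 6 were negative with a median of -0.08, and 13 of the 29 others with a median of 0.10. Set beside the E-boxes, the 9 genes with TCACGTG had median log2 fold changes of 0.36 in the miR-148a line and 0.28 in the control line, and 5 and 3 of them rose. The 19 tested genes whose promoters lacked it had medians of 0.45 and 0.29, and 13 and 7 of them rose. Gm2a and Ctsz, which carry the largest response and the larger called line difference, are among the 19, and their RefSeq promoters are shown in lower case because no E-box was found in these 300 bases. The Gm2a window follows the RefSeq start and ends before the GENCODE start of the gene.
Gm2a, chr11:55097735-55098034, plus strand: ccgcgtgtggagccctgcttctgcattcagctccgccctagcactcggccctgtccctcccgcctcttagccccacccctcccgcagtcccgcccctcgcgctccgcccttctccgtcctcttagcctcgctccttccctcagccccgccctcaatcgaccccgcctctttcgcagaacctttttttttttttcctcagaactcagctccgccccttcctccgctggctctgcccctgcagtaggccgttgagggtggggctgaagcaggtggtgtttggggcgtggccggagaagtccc
Ctsz, chr2:174438990-174439289, minus strand: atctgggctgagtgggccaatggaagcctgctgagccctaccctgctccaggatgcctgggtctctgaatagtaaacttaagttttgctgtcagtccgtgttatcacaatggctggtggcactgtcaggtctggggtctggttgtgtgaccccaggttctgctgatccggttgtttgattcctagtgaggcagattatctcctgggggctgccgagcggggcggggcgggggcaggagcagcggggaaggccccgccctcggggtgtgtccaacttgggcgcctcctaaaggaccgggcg

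Genes of the same pathways outside the 39 were followed in 6 further lists, with 150 genes in the table. In the miR-148a line 43 rose, 4 fell and 90 were tested and did not pass, with a median log2 fold change of 0.20. These calls are 34.3% of those tested, against 28.7% of all genes tested. In the control line 21 rose, 3 fell and 113 did not pass, with a median of 0.15, and the 17.5% called there is near the 17.0% of all genes tested. Most calls in each line were of genes that rose. Over all genes tested, 14.7% rose and 14.0% fell in the miR-148a line, and 9.6% rose and 7.45% fell in the control line. In the control line 39 rose and 12 fell with the replicate block, 37.2% against 34.8% of all genes in that fit, and DESeq2 called 16 higher and 3 lower, where it called 15.6% of all genes with an adjusted p. In the miR-148a line the block called 54 higher and 13 lower, 48.9% against 46.1% of all genes, and DESeq2 called 32 higher and 4 lower, against 24.0% of all genes. In every setting run, Smpd1, Calcoco1, Atg9a and Arl8b kept their calls in both lines, and the other genes called in both lines lost a call in some setting. Of the genes named below, Lmbrd1, Tcirg1 and Arl8a lost their control line calls with DESeq2. Ppt2, Ctns and Wdr45 lost their miR-148a line calls with it. Among 33 further hydrolases, 18 rose in the miR-148a line (54.5%) and 9 in the control line (27.3%), and none fell, while with the block 15 rose and 2 fell in the control line. Smpd1, acid sphingomyelinase, rose by 1.49 ± 0.16 and 1.18 ± 0.16 in the miR-148a and control lines (adjusted p = 0.000675 and 0.00284). Acp5, an acid phosphatase, rose by 1.19 and 0.83, Ppt2, a thioesterase, by 0.90 and 1.14, Naaa, an amidase, by 0.90 in the miR-148a line, and Lgmn, an asparaginyl endopeptidase, by 0.70 in the miR-148a line and 0.60 in the control line. Among 25 membrane proteins, 10 rose in the miR-148a line and 3 in the control line, and none fell. Both shares are above those that rose over all genes tested, 14.7% in the miR-148a line and 9.6% in the control line. In the control line the share is below the 17.0% of all genes called in either direction. With the block 15 and 8 rose in the miR-148a and control lines. Tpcn1, an endolysosomal cation channel, rose by 1.004 and 0.61 in the miR-148a and control lines, Lmbrd1, which exports cobalamin, by 0.77 and 0.48, and Laptm5 by 0.57 and 0.41, its control line call being lost without the anti-IgM control library of replicate 2 or either unstimulated control library. Slc36a1, an amino acid transporter, and Ctns, the cystine exporter, rose by 0.70 and 0.69 in the miR-148a line.

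Of 15 further pump subunits, 3 rose in the miR-148a line (20.0%) and 1 in the control line (6.67%), and none fell. Over all genes tested, 14.7% rose in the miR-148a line and 9.6% in the control line. With the block 3 rose in the control line, 20.0% against 34.8% of all genes in that fit. Tcirg1, the a3 subunit, rose by 0.85 and 0.42 in the miR-148a and control lines, and Atp6v0a1 and Atp6v0e rose by 0.51 and 0.38 in the miR-148a line. Of 36 other autophagy genes, 10 rose and 1 fell in the miR-148a line, and 6 rose and 1 fell in the control line. These shares in either direction, 30.6% and 19.4%, are near those of all genes tested, but most of the calls were of genes that rose. Over all genes tested, 14.7% rose and 14.0% fell in the miR-148a line, and 9.6% rose and 7.45% fell in the control line. With the block 10 of the 36 rose and 4 fell in the miR-148a line and 11 rose and 4 fell in the control line. These are 38.9% and 41.7%, against 46.1% and 34.8% of all genes in that fit. Calcoco1, an autophagy receptor for the endoplasmic reticulum, rose by 1.40 ± 0.14 and 1.26 ± 0.14 in the miR-148a and control lines (adjusted p = 0.000458 and 0.00154). Tecpr1 rose by 1.12 and 0.96, Atg9a, the lipid scramblase of the growing membrane, by 0.88 and 0.82, and Wdr45 by 0.67 and 0.83. The sorting and fusion list was split, with 2 of 13 higher and 2 lower in each line. With the block 2 were higher in each line, and 5 were lower in the miR-148a line and 3 in the control line. Of the 13, 53.8% and 38.5% passed in that fit, against 46.1% and 34.8% of all genes. Gnptab, which makes the mannose 6-phosphate tag of hydrolases, rose by 0.75 in the miR-148a line and 1.52 in the control line, and Arl8a rose by 0.84 and 0.61. Its paralog Arl8b, a GTPase that positions lysosomes, fell, with -0.85 and -0.80, and so did Vps41, a subunit of the HOPS tethering complex, with -0.86 and -0.63. Of 15 genes of TFEB control and mTORC1 on the lysosome, 1 passed in the miR-148a line, Rraga, a Rag GTPase, with -0.66 ± 0.16 (adjusted p = 0.0135), and none passed in the control line. With the block 2 of these 15 rose and 4 fell in the miR-148a line, and 3 fell in the control line.

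Reads of overlapping genes may be mixed in these counts. The library kit keeps strand, but no source used here states the strand setting of the counting, and 12 of the 39 genes overlap another protein-coding gene in GENCODE M21: Lamp1, Npc1, Ctsa, Ctsb, Ctsd, Ctsz, Glb1, Hexa, Atp6v1h, Sqstm1, Map1lc3b and Becn1. Gm2a, Psap, Ctsh, Gusb, Tfeb and Tfe3 are not among them.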

How the data were processed

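PolyA-selected RNA of 8 libraries, 4 groups of 2, was sequenced after Trizol extraction with a directional kit, per the labels' protocols. The authors deposited 1 table of expected counts (estimated counts that need not be whole, not normalised). The tools named, with no role or order, are TopHat2 2.0.13 and Bowtie2, Partek 6.15.0730, edgeR, cutadapt and CASAVA 1.8, and the builds mm10 and GRCm38, per the submitters' processing notes. No source used here states the annotation or the strand setting. Of 24081 rows, 27 whose names had become dates (0.213% to 0.235% of counts) were left out. Counts, 9.54% to 12.8% of them not whole, were rounded.

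Genes were tested with the quasi-likelihood F test of edgeR (edgeR 4.0.16, limma 3.58.1, R 4.3.3) on all 8 libraries with 4 group means, TMM factors and filterByExpr, adjusted by Benjamini-Hochberg over 11291 genes, threshold 0.05, with 4 residual degrees of freedom. A log2 fold change is given with its standard error after ±, from 2 libraries a group. Totals of 5810227 to 18660373 counts set the precision, and floors cover counting error only. Same-numbered libraries deviated together (Pearson's r across genes 0.495 to 0.569 in 6 of 6 pairs of groups) and share a label prefix, so the numbers pair the libraries; results of a fit blocked on that number stand beside a result where they change its call. Replicates differed by more than sampling noise (mean chi-square per gene 9.78 to 14.0). The script was tested on simulated data. DESeq2 1.42.0, other size factors, filters and fits, and each library left out were alternatives, and medians within a label prefix were added after seeing the data. Values in every library are given for genes called in at least 1 of 5 contrasts, up to 4 a role group by largest absolute change over the 4 simple contrasts, and for Tfeb and Tfe3; of each further list, up to 4 called genes per contrast are named. Outside this rule, Ctsd, Man2b1, Map1lc3b and genes that passed nowhere are given by fold change, and Itgam was chosen after its values were seen. Some results are not reported here. The genes and lists were chosen with earlier results of these data known. Promoters and microRNAs are from RefSeq (GRCm38.p6), with Python 3.11.15.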

Additional observations from a re-analysis of the deposited data

How the results depend on the processing

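No direction of a called gene of the 39 was reversed under any alternative run, and no call was lost with the replicate block. In the miR-148a line DESeq2 called 16 of the 39 genes higher and 1 lower. In the control line, the 14 calls became 9 with DESeq2 and 4 to 14 with 1 library left out; over all genes, 1925 calls became 3929 with the replicate block and 540 to 2082 with 1 library left out. In the miR-148a line, the 24 calls became 8 to 21 with 1 library left out, and the 3238 calls over all genes became 5205 with the block and 1481 to 3155. Between the lines unstimulated, 0 calls became 1 with DESeq2 (Ctsz), 5 with the block and 0 with any library left out, and the 55 over all genes became 150 with DESeq2, 179 with no filter, 83 with at least 10 counts in every library, 823 with the block and 0 to 76. With anti-IgM, 2 calls became 4 with DESeq2 (2 higher and 2 lower), 10 with the block, 0 when only these groups were fitted and 0 to 2 with 1 library left out, and the 284 over all genes became 450 with no filter, 1822 with the block, 16 when only these groups were fitted and 0 to 222. For the difference in response, 0 over all genes became 1 with DESeq2, 11 with the block and 0 with any library left out. The block left 3 residual degrees of freedom and lowered the biological coefficient of variation to 5.98%, against 11.1% without it. Where 1 library was left out, its group's lone library was assumed to vary like the other groups. The smallest libraries, both of anti-IgM and replicate 1, limit scarce genes such as Map1lc3a, whose lowest count, 14, was in that of the control line. Gm2a had its lowest count, 18, in the unstimulated control library of replicate 2.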

Other observations

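Between the lines, 3 of the further pathway genes differed with anti-IgM and 2 without stimulation, all lower in the miR-148a line. Of those tested these are 2.19% and 1.46%, against 2.52% and 0.487% of all genes tested. Tpp1, a tripeptidyl peptidase, had 31.9 and 35.6 CPM in the anti-IgM miR-148a libraries and 58.4 and 54.3 CPM in the anti-IgM control libraries, and 22.7 and 25.8 CPM in the unstimulated miR-148a libraries and 45.3 and 43.6 CPM in the unstimulated control libraries. Its log2 fold change between the lines was -0.73 ± 0.11 with anti-IgM (adjusted p = 0.0204) and -0.88 ± 0.11 unstimulated (adjusted p = 0.0218), and its 3′ UTR holds 2 matches to the miR-148a seed. Atp6ap2, an accessory protein of the proton pump, had 25.2 and 24.6 CPM in the anti-IgM miR-148a libraries and 62.1 and 47.3 CPM in the anti-IgM control libraries, with -1.13 ± 0.16 (adjusted p = 0.0154), and -0.93 ± 0.15 unstimulated (adjusted p = 0.042). Gnptab differed by -1.18 ± 0.19 with anti-IgM (adjusted p = 0.0238). Neither Atp6ap2 nor Gnptab holds a match in the 3′ UTR searched. The calls unstimulated were lost without any 1 of the 4 unstimulated libraries, and those with anti-IgM without either anti-IgM control library or the anti-IgM miR-148a library of replicate 2, or when only the groups compared were fitted; that of Tpp1 was also lost without the anti-IgM miR-148a library of replicate 1. With the replicate block, 8 of these pathway genes were lower and 18 higher than in control cells under anti-IgM, and 6 were lower and 4 higher unstimulated. These are 19.0% and 7.3% of those tested, near the 16.1% and 7.29% of all genes in that fit.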
